A study of Oncorhynchus mykiss with 23 samples.

Results

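Collagen chain genes were examined in fast muscle of rainbow trout that were fasted and then fed again. The members are all probes of the array whose gene name, in the heat map file of the study, is COL followed by a digit. There were 21 such probes among the 842 rows of that file that carry a gene name, out of 60195 probes on the array, and they stand for 8 chains among 613 named genes. COL1A1 had 12 probes, COL1A2 and COL5A1 had 2 each, and COL5A2, COL6A1, COL6A2, COL6A3 and COL15A1 had 1 each. The heat map holds only probes that the study had called different across its feeding conditions in these same fish, so that the collagen probes differ somewhere among the conditions was fixed by the way they were found and is not a result. Its copy read here held 1252 rows and is shortened, so further collagen probes may lie in the rows not read. No name in the scanner files said collagen, and no collagen probe that the heat map did not choose could be set beside these.

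Collagens are the main proteins of the connective tissue that wraps muscle fibres and carries their force. COL1A1 and COL1A2 are chains of type I collagen, the bulk of tensile fibrils, and type V collagen (COL5A1, COL5A2) joins the same fibrils and regulates their assembly and width. Type VI collagen (COL6A1, COL6A2, COL6A3) forms beaded filaments next to the basement membrane of the muscle fibre, where mutations in humans cause muscular dystrophy, and COL15A1 encodes a collagen of the basement membrane zone itself. In teleosts duplicated genes encode further type I chains. The trout gene list of RefSeq holds 3 genes named col1a1 and 2 named col1a2, and the files do not say which of these each probe reads. The probes were named after proteins of trout, chicken, human, mouse, cow, hamster or newt, and no sequence of a probe was in the material used here.

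Each of 23 arrays held Cy3-labelled muscle RNA of 1 trout of the Spring strain, taken from a slice of fast muscle below the dorsal fin. F0 were 5 trout fasted for 30 days, RF4 and RF11 were 5 trout each, fasted for 30 days and refed for 4 or 11 days, RF36 were 4 trout refed for 36 days, and C0 were 4 trout fed throughout. Refed trout received a ration above satiation, and control-fed trout lived in a tank of their own and were sampled for the arrays only at day 30. Feeding, tank and, for refed trout, sampling day therefore cannot be told apart in any comparison with C0. F0 and the refed groups were taken on different days as well, so refeeding and elapsed time cannot be told apart between them. The study's Methods and the labels give the length of the fast as above, while its Results text gives another length for refed trout.

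Levels are log2 of the scanner's background-subtracted signal minus the 75th percentile of the array, and a level of one probe cannot be set against that of another. Between 45.2% and 67.2% of spots were well above background on an array, no spot was saturated, and each of the 3 slides carried all 5 groups. The control array C0-1 stood apart in its median correlation with the arrays of other groups over all tested probes. This was 0.90, against 0.92 to 0.95 for the other 22 arrays. Its median correlation within the controls, 0.933, was near those of C0-3 (0.937) and C0-2 (0.943), with C0-4 at 0.963. The counts and the brightest probes' differences that rest on the controls are given with and without C0-1. The study's methods say that 1 control sample gave no signal and was left out, and its heat map numbers the 4 controls from 2 to 5 where the labels number them from 1 to 4, so whether C0-1 entered the study's own comparisons is not known here. C0-1 did give signal, with 67.2% of its spots well above background against 48.0% to 54.3% in the other 3 controls. Of the fast muscle markers listed, ACTA1 and CKM had a named probe, well above background on all arrays, while of the fibroblast markers DCN, SPARC and MFAP2 had one. MFAP2 was well above background on 2 of 5 F0 arrays and on every array of the other groups. The array measures muscle tissue as a whole, so fewer matrix-producing cells and less collagen RNA per cell cannot be told apart. Differences were tested with limma over 34290 probes in 1 model of the 5 groups, with Benjamini-Hochberg adjustment over all of them. A call means an adjusted p under 0.05. Counts under other fits are set beside the share over all tested probes only where that share is printed. Where it is not, a change in the count cannot be told apart from a change over all probes. Where the fish of 2 groups are said not to overlap in single chains, this only describes those fish. The share of tested probes without overlap is given only for F0 below C0 (5.25%), RF36 above F0 (16.8%) and RF11 above RF4 (3.31%). In the other comparisons a lack of overlap therefore cannot be read as particular to the collagens.

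Fasting was the condition with the lowest collagen levels in every chain. In F0 against C0 all 21 probes were lower, against 8.89% of all tested probes and 30.2% of the heat map rows called lower, with a median log2 difference of -2.37 and a range from -3.53 to -1.54. The median over all tested probes was 0.00. In 20 of the 21 probes every fasted fish lay below every control-fed fish, which 5.25% of tested probes did. Without C0-1 all 21 probes were still called lower, against 8.64% of all tested probes, with a median of -2.54.

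At 4 days of refeeding 20 of the 21 probes were called higher than in F0, with a median log2 difference of 1.34, against 13.6% of all tested probes and 20.1% of the heat map rows. Without C0-1 all 21 were called, against 14.7% of tested probes. At 11 days all 21 were higher than F0 (median 1.56, against 15% of tested probes and 29.6% of the heat map rows), and at 36 days all 21 were higher with every refed fish above every fasted fish (median 2.55, against 18.1% of tested probes and 30.5% of the heat map rows called higher, and 16.8% of tested probes with groups not overlapping). The median steps between refed groups were smaller than the median rise at 4 days. In COL5A1 and COL6A3, however, the step from 11 to 36 days exceeded the rise at 4 days. From 4 to 11 days no probe was called (1 of 21 at an unadjusted p under 0.05, limma), against 1.92% of tested probes called in either direction, and the median difference was 0.24. From 11 to 36 days 5 probes were called higher, against 2.73% of tested probes and 8.84% of the heat map rows, and all 21 differences were positive with a median of 0.94. Without C0-1, which lies in neither of those groups but takes part in the shared estimate of the spread, the count from 11 to 36 days was 7, against 3.91% of tested probes. That count of 5 fell to 1 with arrays scaled to their median, against 0.712% of tested probes. It was also 1 in the deposited values, whose arrays all have the same median and so are no separate check. It fell to 2 with no filter on dim probes, to 3 without RF11-4, and to 2 without any one of RF11-1, RF11-2, RF36-1, RF36-3 or RF36-4.

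**Figure D1:**
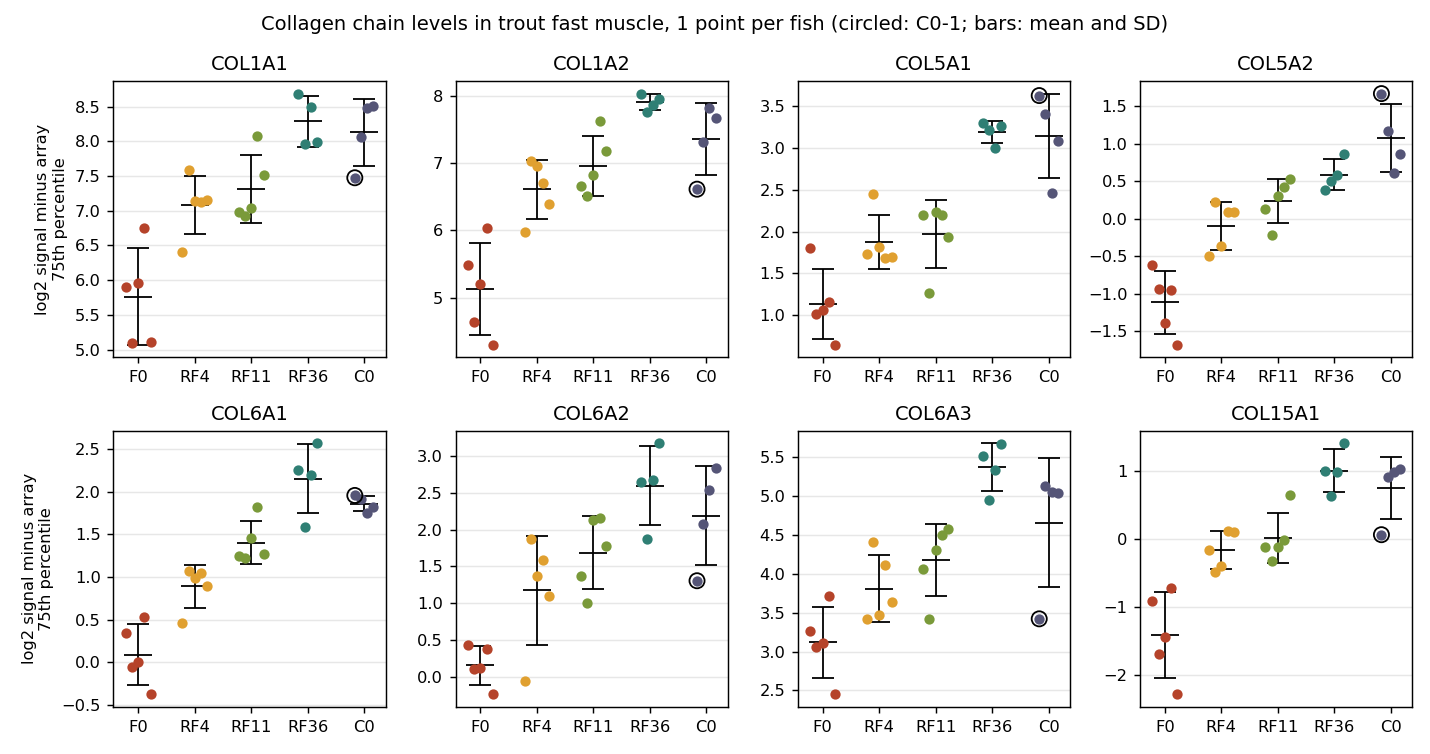
Level (log2 signal minus the 75th percentile of the array, vertical axis) of the brightest probe of each of 8 collagen chains by feeding group (horizontal axis), with 1 point per fish and bars for the mean and SD. F0 is the lowest group in every panel, RF4 and RF11 lie between, and the circled control C0-1 is the lowest control for COL6A3 (3.42) but the highest for COL5A1 (3.62).

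Refed trout were then set against control-fed trout. After 4 days 14 of 21 probes were lower than in C0, against 9.89% of tested probes and 38.2% of the heat map rows called lower, and without C0-1 the count was 18, against 7.73%. It was 5 with arrays scaled to their median, against 2.41% of tested probes, 5 in the deposited values, 9 with normexp background correction, 7 without C0-4, 8 without RF4-2 and 9 without C0-3. After 11 days 5 probes were lower, against 6.7% of tested probes and 25.7% of the heat map rows, a share of the members near that of the rows they were taken from. Without C0-1 there were 8, against 4.95% of tested probes, and with median scaling and in the deposited values 2. The 5 were both COL5A1 probes, the COL5A2 probe, 1 of the 12 COL1A1 probes and the dimmer COL1A2 probe. After 36 days none of the 21 was called in either direction (0 at an unadjusted p under 0.05, limma), against 12.4% of tested probes, and 18 of the 21 differences were positive (median 0.15). Without C0-1 none was called either, 12 of the 21 were positive and the median was 0.026. A missed threshold does not show equal levels, and the 95% intervals of RF36 against C0 given with each chain state what these fish leave possible.

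**Figure D2:**
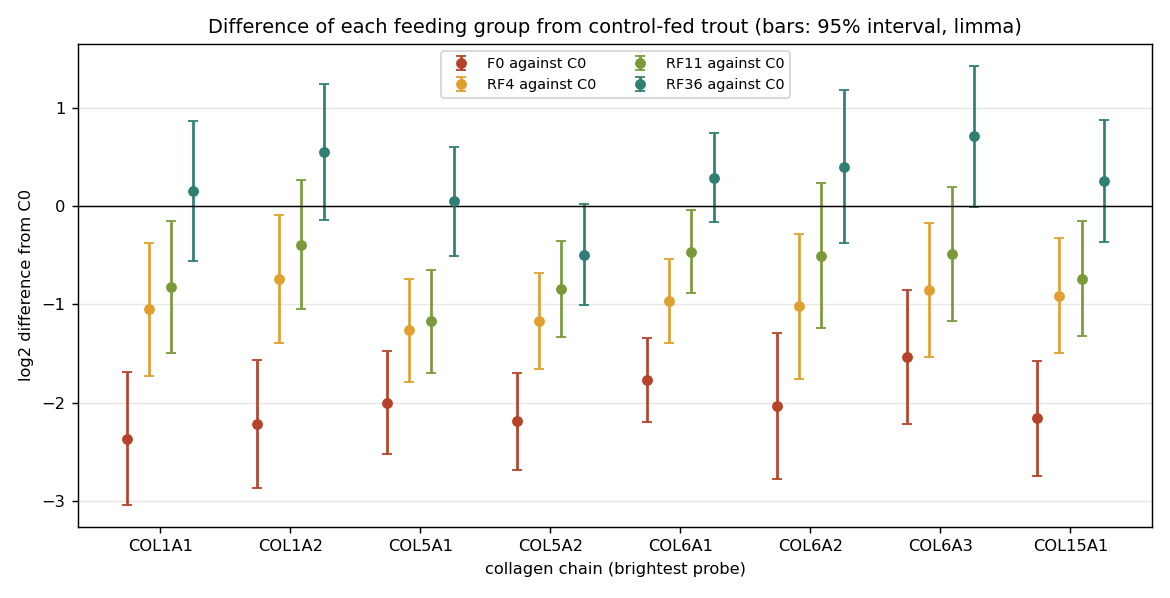
Log2 difference of F0, RF4, RF11 and RF36 from C0 (vertical axis) for the brightest probe of each chain (horizontal axis), with 95% intervals from limma. All F0 intervals lie below 0 and all RF36 intervals include 0, and at RF11 the interval of COL5A1 (-1.70 to -0.65) lies below 0 while that of COL1A2 (-1.05 to 0.26) includes it.

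Among the fibrillar chains, the brightest COL1A1 probe, for the major chain of type I collagen, read 5.90, 5.09, 5.96, 6.76 and 5.12 in the 5 F0 fish and 6.41, 7.58, 7.13, 7.13 and 7.15 in RF4. It read 6.99, 6.93, 7.04, 8.08 and 7.52 in RF11, 8.69, 7.96, 8.49 and 7.99 in RF36, and 7.47, 8.06, 8.48 and 8.51 in C0. Every fasted fish was below every control-fed one, 1 fasted fish (F0-5) reached into the RF4 range, and RF36 and C0 overlapped. The difference of F0 from C0 was -2.37 ± 0.33 (SE; adjusted p = 1.86e-05, limma), a 5.16-fold lower level, and -2.59 without C0-1. The rise at 4 days was 1.32 ± 0.31 (adjusted p = 0.00266, limma) and that at 36 days 2.52 ± 0.33, or 5.73-fold (adjusted p = 4.03e-06, limma). The interval of COL1A1 in RF36 against C0 ran from -0.56 to 0.86 around 0.15, a sign that turned to -0.066 without C0-1 and to -0.17 after quantile normalization.

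The other 11 COL1A1 probes moved the same way. Over all 12 the difference of F0 from C0 ran from -3.53 to -2.01 (-3.52 to -2.27 without C0-1), and all 12 were called lower. All 12 were called higher than F0 at 4 days (1.23 to 2.52), at 11 days (1.33 to 2.74) and at 36 days (2.30 to 3.51). From 11 to 36 days none of the 12 was called, with differences of 0.61 to 1.02, and 7 of 12 were called lower than C0 at 4 days (9 without C0-1). The probe at the far end, TC108656, was the dimmest of the 12 and cleared the background in just 1 of the 5 fasted fish, so its difference of -3.53 rests on fasted signals near the background.

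Across fish of one group the COL1A1 probes did not form a single set. Taking each fish's deviation from its group mean over 23 arrays, the correlation between 2 COL1A1 probes ran from 0.09 to 1.00 over the 66 pairs (median 0.62). A set of 7 probes, joined after the values were seen by correlations over 0.9, had 0.87 to 1.00 within itself, and 0.09 to 0.70 with the other 5. The low end of the latter range, 0.09 to 0.25, came from TC108656 alone, the probe near the background in fasted fish. Without that probe the range was 0.43 to 0.70. The fasted fish show the contrast plainly. In the set of 7, the brightest probe was highest in F0-5 (6.76, against 5.90 in F0-2), while the brightest of the other 5 probes was highest in F0-2 (6.14, against 5.66 in F0-5). Whether the sets read different col1a1 genes was not tested, since no probe sequence was at hand.

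COL1A2, for the partner chain in type I collagen, read 5.48, 4.65, 5.21, 6.04 and 4.30 in F0 with its brighter probe, and 5.97, 7.04, 6.96, 6.70 and 6.39 in RF4. It read 6.65, 6.52, 6.83, 7.63 and 7.19 in RF11, 8.04, 7.76, 7.87 and 7.96 in RF36 and 6.61, 7.32, 7.82 and 7.67 in C0. The RF36 fish lay close together and above all RF11 fish, and the lowest control was C0-1. F0 differed from C0 by -2.22 ± 0.32 (SE; adjusted p = 2.76e-05, limma), or -2.47 without C0-1, and RF4 from F0 by 1.48 ± 0.30 (adjusted p = 0.000683, limma). COL1A2 tracked COL1A1 across fish of one group (r = 0.93 between their brightest probes, 23 arrays). At RF36 the difference from C0 was 0.55, with an interval from -0.14 to 1.24, and 0.30 without C0-1.

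The dimmer COL1A2 probe behaved unlike the brighter one. It read -0.13, -1.02, -1.19, -0.55 and -1.61 in F0, 0.01, 1.62, 0.49, 0.17 and -0.11 in RF4, and 0.57, -0.55, 0.65, 0.90 and 0.35 in RF11. It read 1.96, 1.67, 1.10 and 1.19 in RF36, and 2.76, 1.97, 1.41 and 1.83 in C0, where C0-1 was the highest fish and not the lowest. After 11 days it was still lower than in C0 by a log2 difference of -1.61 (adjusted p = 0.00285, limma), against -0.39 for the brighter probe (adjusted p = 0.389, limma), and without C0-1 these differences were -1.36 and -0.64. The difference between these probes was not tested. Across fish of one group it correlated at 0.65 to 0.90 with the 3 COL5 probes and at 0.37 with the brighter COL1A2 probe (23 arrays), and without C0-1 these values were 0.59 to 0.89 and 0.61.

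COL5A1, for a chain of the collagen that regulates fibril assembly, read 1.81, 1.02, 1.06, 1.16 and 0.65 in F0, and 1.73, 2.45, 1.82, 1.69 and 1.70 in RF4. It read 2.20, 1.27, 2.24, 2.19 and 1.94 in RF11, 3.29, 3.21, 3.00 and 3.26 in RF36, and 3.62, 3.40, 2.46 and 3.08 in C0. All RF36 fish stood above all RF11 fish, and both RF4 and RF11 lay wholly below C0. The early rise was small, at 0.74 ± 0.24 for RF4 over F0 (SE; adjusted p = 0.0270, limma), and its call was lost when any of 4 fish was left out (F0-3, F0-4, F0-7 or RF4-3, with adjusted p from 0.0546 to 0.0931). That call was also lost with quantile normalization (adjusted p = 0.0822, limma) and with no filter on dim probes (0.0579). The step from 11 to 36 days was larger, at 1.22 ± 0.25 (adjusted p = 0.00498, limma), a 2.33-fold rise. Its second probe gave 0.64 at 4 days and 1.06 from 11 to 36 days, both called.

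COL5A1 had regained 36.9% ± 16.1 (SD over 5 fish) of the distance between the F0 and C0 means at 4 days, 41.4% ± 20.3 at 11 days and 102% ± 6.6 (4 fish) at 36 days. For COL1A1 these shares were 55.6% ± 17.8, 65.3% ± 20.6 and 106% ± 15.3, and for COL1A2 66.6% ± 19.8, 82.3% ± 20.2 and 125% ± 5.4. Without C0-1 the shares were 40.1%, 45.0% and 111% for COL5A1, 50.9%, 59.8% and 97.4% for COL1A1, and 59.9%, 74.1% and 112% for COL1A2. The SD counts the refed fish only and leaves out the error of the F0 and C0 means. At 11 days COL5A1 was lower than C0 by a log2 difference of -1.17 ± 0.25 (adjusted p = 0.00189, limma; 0.0108 without C0-1). The difference at 36 days was 0.05 with an interval from -0.50 to 0.60, and 0.21 without C0-1. Whether the chains differ in these shares was not tested.

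COL5A2, the partner chain of COL5A1, read -0.61, -0.93, -1.39, -0.95 and -1.68 in F0 and -0.50, 0.23, -0.36, 0.10 and 0.09 in RF4. It read 0.14, -0.22, 0.31, 0.42 and 0.53 in RF11, 0.38, 0.51, 0.59 and 0.87 in RF36, and 1.67, 1.17, 0.61 and 0.87 in C0. Refed and fasted fish did not overlap even at 4 days, and RF11 lay wholly below C0. RF4 was 1.02 ± 0.22 above F0 (SE; adjusted p = 0.00147, limma), but the step from 11 to 36 days was 0.35 ± 0.24 (adjusted p = 0.428, limma). The difference of RF36 from C0 was negative, at -0.49 with an interval from -1.01 to 0.02 (-0.29 without C0-1), and at 36 days it had regained 77.5% ± 9.4 (SD, 4 fish), or 85.2% without C0-1. The call for RF11 against C0 (-0.84, adjusted p = 0.0141, limma) was lost without C0-1 (-0.65, adjusted p = 0.0678) and in a model of those groups alone (adjusted p = 0.0593). It was also lost with median scaling (-0.52, adjusted p = 0.172) and so in the deposited values, which are scaled alike (adjusted p = 0.172).

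The type VI chains each had their lowest group mean in F0 and their highest in RF36. COL6A1 read 0.34, -0.06, 0.00, 0.53 and -0.38 in F0, 0.46, 1.07, 0.99, 1.04 and 0.90 in RF4, and 1.24, 1.22, 1.45, 1.82 and 1.26 in RF11. It read 2.26, 1.59, 2.20 and 2.57 in RF36 and 1.95, 1.92, 1.75 and 1.82 in C0, the tightest control group of the 8 chains (SD 0.09). Every RF11 fish was above every RF4 fish, which no other collagen probe showed and which 3.31% of tested probes did, yet that step of 0.51 ± 0.19 (SE) was not called (adjusted p = 0.205, limma). F0 differed from C0 by -1.77 ± 0.21 (adjusted p = 2.62e-06, limma), and the step from 11 to 36 days was 0.75 ± 0.21 (adjusted p = 0.0317, limma). The call of that step was lost without any one of RF11-1, RF11-2, RF11-4, RF11-6, RF36-1, RF36-3 or RF36-4 (adjusted p from 0.0505 to 0.106), with median scaling or the deposited values (0.112 in each), with no filter on dim probes (0.0801) and in a model of those groups alone (0.0632). For COL6A1 the difference of RF36 from C0 was 0.29 with an interval from -0.16 to 0.74. Without C0-1 the differences of F0 and RF36 from C0 were -1.74 and 0.32.

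COL6A2 read 0.43, 0.11, 0.11, 0.37 and -0.24 in F0, and -0.06, 1.87, 1.37, 1.59 and 1.09 in RF4, where 1 fish (RF4-2) stayed in the fasted range. It read 1.37, 1.00, 2.13, 2.16 and 1.78 in RF11, 2.65, 1.87, 2.68 and 3.17 in RF36, and 1.30, 2.08, 2.54 and 2.84 in C0. Apart from that fish, refed and fasted trout did not overlap. RF4 was 1.02 ± 0.34 above F0 (SE; adjusted p = 0.0311, limma), a call lost without any one of F0-3, F0-4, F0-7, RF4-3, RF4-4 or RF4-5 (adjusted p from 0.0569 to 0.0991) and with no filter on dim probes (0.0618). F0 differed from C0 by -2.04 ± 0.36 (adjusted p = 0.000279, limma), and RF36 from C0 by 0.40 with an interval from -0.38 to 1.18. Without C0-1, the lowest control, these COL6A2 differences were -2.33 and 0.11.

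COL6A3, the largest chain of type VI collagen in mammals, read 3.27, 3.06, 3.11, 3.72 and 2.45 in F0, and 3.42, 4.41, 3.47, 4.11 and 3.63 in RF4. It read 4.07, 3.42, 4.31, 4.50 and 4.57 in RF11, 5.52, 4.95, 5.33 and 5.67 in RF36, and 3.42, 5.13, 5.05 and 5.04 in C0. The first control value, that of C0-1, lay inside the fasted range and the other 3 lay close together above it. COL6A3 was the exception at 4 days, with a rise of 0.69 ± 0.31 (SE; adjusted p = 0.118, limma) that was called without C0-1 (adjusted p = 0.0446). Its difference of F0 from C0 was -1.54 ± 0.33 (adjusted p = 0.00184, limma), and -1.95 without C0-1. RF36 was 1.20 ± 0.33 above RF11 (adjusted p = 0.0334, limma), with no overlap of fish. That call was lost without any one of RF11-1, RF11-2, RF36-1, RF36-3 or RF36-4 (adjusted p from 0.0540 to 0.0952), with median scaling or the deposited values (0.129 in each) and with no filter on dim probes (0.0755).

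RF36 stood above C0 in COL6A3 by 0.71 (interval -0.01 to 1.43; adjusted p = 0.187, limma), which was 0.30 without C0-1. The share of the fasting difference regained at 36 days was 146% ± 20.1 (SD, 4 fish) over all controls and 115% without C0-1. Across fish of one group the 3 type VI probes correlated at 0.51 to 0.79, and at 0.74 to 0.78 without C0-1.

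COL15A1, for the basement membrane zone collagen, read -0.91, -1.69, -1.45, -0.72 and -2.29 in F0, and -0.15, -0.48, -0.39, 0.13 and 0.11 in RF4. It read -0.12, -0.33, -0.12, -0.01 and 0.65 in RF11, 1.01, 0.63, 0.98 and 1.41 in RF36, and 0.07, 0.92, 0.99 and 1.03 in C0. All refed fish stood above all fasted fish from 4 days on, which at 36 days 16.8% of tested probes did. F0 differed from C0 by -2.16 ± 0.28 (SE; adjusted p = 1.01e-05, limma), and RF4 from F0 by 1.25 ± 0.27 (adjusted p = 0.00119, limma). The step from 11 to 36 days was 0.99 ± 0.28 (adjusted p = 0.0395, limma), a call lost without any one of RF11-1, RF11-2, RF11-4, RF11-5, RF36-1, RF36-3 or RF36-4 (adjusted p from 0.0654 to 0.109), with median scaling or the deposited values (0.140 in each) and with no filter on dim probes (0.0904). RF36 differed from C0 by 0.26 with an interval from -0.36 to 0.87. As for COL6A3, C0-1 was the low fish among the controls, and without it RF36 differed from C0 by 0.026 and F0 from C0 by -2.39.

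In 7 of the 8 brightest probes the group means stood in the order F0, RF4, RF11, C0 and RF36 from low to high, and in COL5A2 C0 stood above RF36. Of the neighbours in that order, F0 and RF4 differed by test in 7 of the 8 chains (all but COL6A3), and RF4 and RF11 in none. C0 and RF36 differed in none, and RF11 and C0, neighbours in 7 chains, differed in COL5A1 alone among those 7. In COL5A2, where RF11 and RF36 are neighbours, that step was not called. RF11 was called below C0 in COL5A2 as well (-0.84), a call lost without C0-1. Without C0-1 the COL1A1 mean of C0 also stood above that of RF36, and RF11 was called below C0 in COL1A1, COL6A3 and COL15A1 too (adjusted p = 0.0410, 0.0347 and 0.0235, limma).

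**Figure D3:**
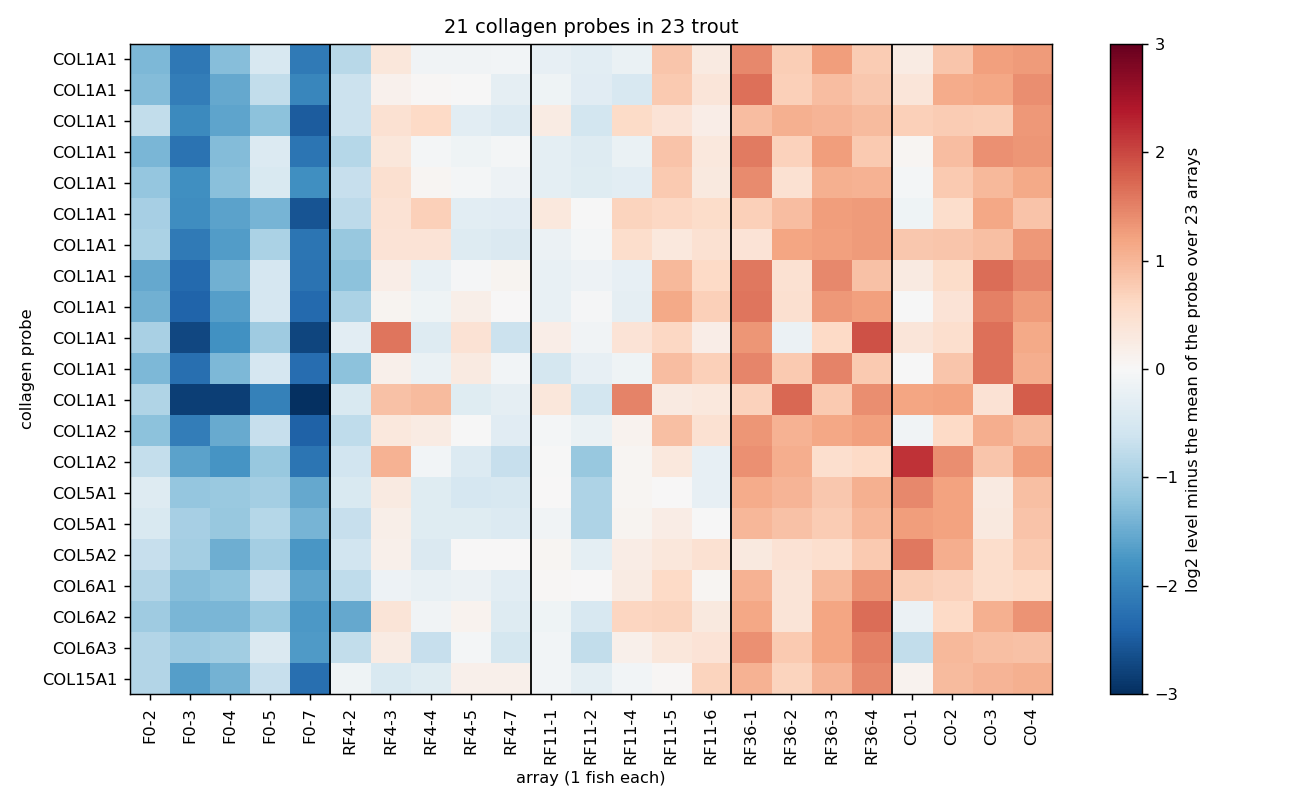
Level of each of 21 collagen probes (rows) in each of 23 trout (columns, black lines between F0, RF4, RF11, RF36 and C0), as log2 difference from the mean of the probe over all arrays. The 5 fasted fish are blue throughout and the 4 RF36 fish red in nearly all rows, and C0-1 is red for the COL5 probes and pale or blue for COL6A2 and COL6A3.

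Individual fish kept their rank over many of the probes, which are not independent of each other. Among the fasted trout F0-7 was lowest in 16 of 21 probes, while F0-5 was highest in 11 and F0-2 in the other 10. RF4-2 was lowest of its group in 17 probes and RF4-3 highest in 15. RF11-2 was lowest in 16 and RF11-5 highest in 13. In the controls C0-1 was lowest in 15 probes and highest in 5, which were the COL5A1 pair, COL5A2, COL6A1 and the dimmer COL1A2 probe.

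The 8 brightest probes correlated at 0.72 to 0.97 across the 23 arrays (28 pairs, median 0.90), a figure that includes the shared shift between feeding groups. Within groups and with C0-1 included, COL5A1 and COL5A2 correlated with each other at 0.75 and with COL1A1 and COL1A2 at 0.15 to 0.21. C0-1 was the highest control for both COL5 chains and the lowest for COL1A1 and COL1A2, so the lower values lean in part on that array. Over all 54 pairs of a COL5 probe and another collagen the median within-group correlation was 0.28 over all arrays and 0.46 without C0-1. That wider set holds the pairs of COL5 with COL1 named above, which are not given apart without C0-1. These correlations are descriptions over arrays that share scaling and slides.

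**Figure D4:**
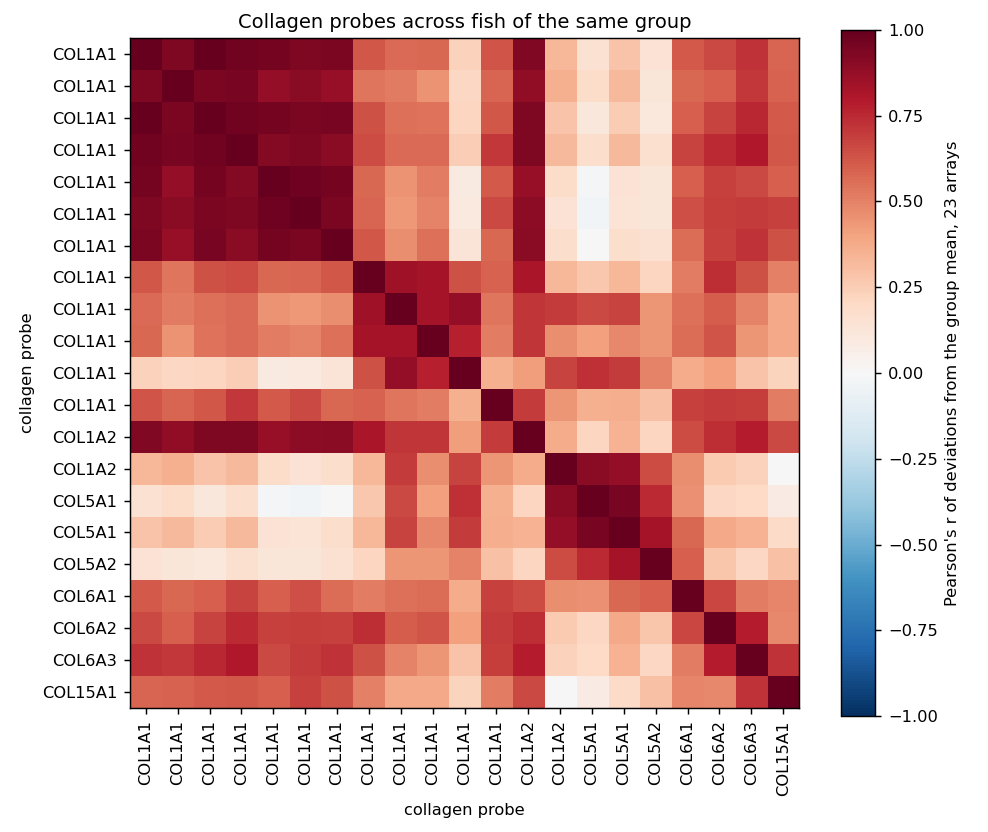
Pearson's r between the 21 collagen probes (rows and columns) of deviations from the group mean over 23 arrays. A block of 7 COL1A1 probes and the brighter COL1A2 probe is dark red, a second block joins the dimmer COL1A2 probe with the COL5 probes (0.65 to 0.95), and the pale area is COL5 against the first block. C0-1 is included here. The median of COL5 probes with other collagens was 0.28, and 0.46 without C0-1.

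The slides carried all groups, so the comparisons could be repeated within each, on 1 or 2 fish per group and without a test. F0 lay below C0 for all 8 brightest probes on all 3 slides (differences from -2.98 to -0.66). RF36 lay above F0 and above RF11 on all 3 slides as well, from 0.99 to 3.38 and from 0.05 to 1.48. RF4 exceeded F0 on every slide except for COL5A1 on slide 1 (-0.09). RF4 against C0 was negative for all 8 on slides 1 and 3, but for 4 of 8 on slide 2. RF11 against RF4 was positive for all 8 on slides 1 and 3 and for 2 of 8 on slide 2. On slide 2 the only control is C0-1 and the only RF4 fish is RF4-3, which was highest of its group in 15 of 21 probes. With the slide as a block, 17 of 21 probes were called lower in RF4 than in C0, against 10.6% of tested probes, and 10 higher in RF36 than in RF11, against 2.98%. Of the alternatives run, no other gave a higher count for RF36 against RF11, and only the fit without C0-1 did for RF4 against C0 (18).

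A further 3 collagen rows of the heat map carry a description but no gene name and stand outside the members. Probes described as col1a1a and col1a2 differed in F0 from C0 by -2.43 and -2.59, and in RF36 from C0 by 0.11 and 0.51 (-0.09 and 0.26 without C0-1). A COL12A1 probe, for a collagen that binds to the surface of fibrils, read 1.25, 0.55, 0.59, 0.71 and 0.03 in F0, 2.78, 2.97, 2.97 and 3.20 in RF36, and 1.08, 2.55, 2.43 and 2.26 in C0. All RF36 fish exceeded all controls, of which C0-1 was again the lowest, and the difference of 0.90 was not called (adjusted p = 0.119, limma). Without C0-1 it was 0.57 (adjusted p = 0.384).

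Of 44 listed genes for the making, cross-linking, processing, turnover and binding of collagen, 11 had a named and tested probe, all of them from the same heat map and so chosen on these fish. In F0 against C0, 10 of the 11 were lower and 1 was higher, with or without C0-1, where 8.89% of all tested probes and 30.2% of the heat map rows were lower. The lower ones included SERPINH1, the collagen chaperone (-0.74), LOX, which cross-links fibrils (-1.39), and the collagen-binding SPARC and DCN (-1.66 and -1.42). MFAP2, a microfibril protein, had the largest fall (-2.88), but it was well above background on 2 of 5 F0 arrays only. The proteinases MMP23 and ADAMTS1 (-1.28 and -1.59) and the collagen receptor subunit ITGB1 (-1.41) were lower too.

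CTGF, a matricellular growth factor that induces collagen in mammalian fibroblasts, ran the other way. F0 exceeded C0 by 2.47 (adjusted p = 0.000735, limma) and CTGF then fell by 3.55 from F0 to RF4, while the other 10 genes were called higher at 4 days, from 0.48 for SERPINH1 to 1.48 for MFAP2, where 13.6% of all tested probes and 20.1% of the heat map rows were higher. No gene of the list was called between RF36 and C0 (limma; 0 at an unadjusted p under 0.05), with a median difference of 0.10 (0.036 without C0-1). Of 9 listed fibroblast markers, DCN, SPARC and MFAP2 had a tested probe, and these moved with the collagens in each of F0 against C0 and RF4, RF11 and RF36 against F0. All 3 were called each time, against 8.89%, 13.6%, 15% and 18.1% of all tested probes. They are among the 11 genes above and so were likewise chosen on these fish, and their part in the collagen differences was not tested. The cartilage marker UCMA did likewise (-1.74 in F0 against C0), ACTA1 was lower in F0 (-1.12) and CKM higher (1.55). KDR, an endothelial receptor, was called higher in F0 than in C0 (0.86, adjusted p = 0.0476, limma), but not without C0-1 (0.55, adjusted p = 0.211). In RF36 KDR was called lower than in F0 (-2.13), RF11 (-1.38) and C0 (-1.27, or -1.57 without C0-1). These calls stood with and without C0-1.

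Likeness to the collagens was ranked over 589 other named genes, all from the heat map and so chosen on differences between conditions in these same fish. Those whose level over the 23 arrays was most like the mean of the 8 centred chain levels were EHD1 (r = 0.96), PRELP (0.96), SPARC (0.96), DCN (0.96), UCMA (0.94), MUC1 (0.94), RAB28 (0.94), CYBB (0.94), KERA (0.93) and NOTCH1A (0.93), by the best matching probe of each. PRELP, DCN and KERA encode small leucine-rich proteoglycans of the matrix. Within groups the same correlations ran from 0.63 for KERA to 0.84 for EHD1 and DCN.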

How the data were processed

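Muscle RNA of 23 trout was measured on 1-colour Agilent arrays. The intensity deposited by the authors is the processed signal of Agilent Feature Extraction 10.7.3.1, background-subtracted and not scaled between arrays. The spot and local background intensities, also deposited, entered only the normexp alternative (offset 50). The authors' deposited table of log2 values from GeneSpring, which equals the log2 processed signal minus 1 constant per array, was used as an alternative. All its arrays have the same median (6.09), so it nearly repeats the alternative with arrays scaled to their median and is no separate check.

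Each array held 61657 non-control spots, and outlier spots, 145 over the 23 arrays together, were left out. Spots of a probe were averaged as log2 values, and the 75th percentile of each array was subtracted. The 34290 probes that had a value throughout and that 4 or more fish of some group showed clearly over background were tested with limma 3.58.1 (R 4.3.3; lmFit, eBayes) in 1 model with a mean per group, two-sided, with Benjamini-Hochberg adjustment over all tested probes and a threshold of 0.05. The fit was tested on simulated data. All 21 collagen probes passed the filter. Where nothing says otherwise a chain is described by its brightest probe on average. Summaries and figures used Python 3.11.15, pandas 2.3.3 and matplotlib 3.10.9.

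The members, the pathway and marker lists and the tests were chosen with earlier results of these data known. Names of the collagen probes came from the study's heat map file, of which no value was used. Arrays are single fish, and their number limits the precision. Results are also given for probes of the pathway and marker lists, the genes most like the collagens and scleraxis. The remaining probes served for scaling, the shared model, adjustment, background shares and the correlations between arrays.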

Additional observations from a re-analysis of the deposited data

Results flagged for a closer look

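In 4 of 40 combinations of a chain and a group, 1 fish lay far from the others of its group by Dixon's criterion, of which chance gives about 2. COL6A3 in the controls read 3.42 in C0-1 and 5.04 to 5.13 in the other 3 fish. COL15A1 in the controls read 0.066 in C0-1 and 0.92 to 1.03 in the other 3. COL5A1 in RF4 read 2.45 in RF4-3 and 1.69 to 1.82 in the other 4. COL6A1 in RF4 read 0.46 in RF4-2 and 0.90 to 1.07 in the other 4.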

How the results depend on the processing

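The fall of F0 from C0 and the rise of RF36 over F0 were called for all 21 collagen probes under every alternative, except that the filter requiring signal over background in every fish left 20 to test, all 20 called. The other counts moved. Probes higher in RF36 than in RF11 numbered 5 as reported, against 2.73% of all tested probes. The count was 1 with arrays scaled to their median (0.712%) and 1 in the authors' deposited values. It was 2 with no filter on dim probes, 8 with signal over background required in every fish and 10 with the slide as a block (2.98%). Probes lower in RF4 than in C0 numbered 14 as reported (9.89%). That count was 5 with median scaling (2.41%), 9 with normexp background correction and 5 in the deposited values. Probes lower in RF11 than in C0 numbered 5 as reported (6.7%). That count was 2 with median scaling, 2 in the deposited values and 3 in a model of only the groups compared. For counts without a share here, and for those with the sample number as a block, no share over all tested probes is given. The same holds for the fits without 1 fish other than C0-1. A moved count there cannot be told apart from a shift over all probes. Median scaling moved the median difference of all probes in RF36 against C0 from 0.03 to 0.27. Leaving out 1 fish at a time gave 21 to 21 probes for F0 against C0, RF11 against F0, RF36 against F0 and the test over 5 groups, 17 to 21 for RF4 against F0, 0 to 0 for RF11 against RF4 and for RF36 against C0, 2 to 7 for RF36 against RF11, 7 to 18 for RF4 against C0 and 4 to 8 for RF11 against C0. For RF36 against RF11 the count was 2 without RF11-1, RF11-2, RF36-1, RF36-3 or RF36-4 and 3 without RF11-4. For RF4 against C0 it was 7 without C0-4, 8 without RF4-2 and 9 without C0-3, and for RF11 against C0 it was 8 without C0-1. Signs turned for COL1A1 in RF36 against C0 (-0.17 with quantile normalization, and -0.066 to 0.28 over the fits without 1 fish, the former without C0-1) and for COL5A1 (-0.25 with quantile normalization, and -0.18 to 0.21 over the fits without 1 fish, the former without C0-3). The 32 alternatives count median scaling and the deposited values apart, though both give all arrays the same median. Over 72 chain differences and 32 alternatives, 2204 outcomes kept direction and call, 69 lost the call, 25 gained it and 6 turned sign. The cause of these changes was not tested. Same-numbered fish of different groups correlated at -0.32 to 0.35 (33 pairs, median 0.11, 17 of them over 0.1). Differently numbered fish correlated at -0.34 to 0.32 (178 pairs, median -0.01, 47 of them over 0.1). Pairs of both kinds include some on the same slide, such as F0-2 with RF4-2 and F0-2 with RF4-7, so number and slide are mixed in these values. The main model did not take the numbers as pairs, and whether fish of one number share an effect was not tested. With the sample number as a replicate block COL15A1 and COL5A1 in RF11 against RF4 turned to -0.031 and -0.10, and the counts were 21 for F0 against C0, 19 for RF4 against F0, 18 for RF11 against F0, 7 for RF36 against RF11, 14 for RF4 against C0 and 7 for RF11 against C0.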

Other observations

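A pair of probes named scleraxis in the scanner files, looked up after the names had been seen, was outside the heat map rows read. Scleraxis is a transcription factor of tendon cells that drives collagen genes in mammals. The brighter probe read -0.03 ± 0.22 (SD, n = 5) in F0, -0.12 ± 0.24 after 4 days of refeeding (n = 5), -0.43 ± 0.12 after 11 days (n = 5), -0.11 ± 0.57 after 36 days (n = 4) and 0.55 ± 0.28 in the controls (n = 4). It was called lower than in C0 at 4 and 11 days (differences of -0.67 and -0.98; adjusted p = 0.0237 and 0.00203, limma) and not in F0 or RF36 (-0.59 and -0.66; adjusted p = 0.0552 and 0.0569). Without C0-1 the call at 4 days was lost (-0.62, adjusted p = 0.0638) and that at 11 days was not (-0.93, adjusted p = 0.00800). The dimmer probe was well above background on 0 of 4 RF36 arrays and on 2 of 5 RF11 arrays, so no difference is given for it.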
